A study of Mus musculus with 19 samples.

Results

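10 homeobox genes that pattern the midbrain and hindbrain were followed across the mouse cerebellar progenitors and tumors of this study: En1, En2, Otx1, Otx2, Gbx2, Pax3, Lmx1a, Uncx, Irx3 and Irx5. They were taken as the 10 listed symbols of the array annotation, among 18193 genes with a symbol of their own, and each was read from the probe set with the highest mean over all 19 arrays. Pax3 had 3 probe sets and each of the others had 1. Expression was measured on Affymetrix Mouse430+2 arrays in 5 groups. NEP tumors (4 arrays) arose in the genotype Nestin-CreERT2/Ptch1C/C, in which Nestin drives the inducible Cre. GNP tumors (4 arrays) arose in Math1-CreERT2/Ptch1C/C, in which Math1, the gene now called Atoh1, drives it. The progenitors were Nestin+ progenitors (NEP, 4 arrays), Math1+ neuronal progenitors (GNP, 4 arrays) and CD133+, Lin- cerebellar progenitors (NSC, 3 arrays, numbered 1, 2 and 6). The strain label was C57BL/6 throughout, and the cells came straight from cerebellum uncultured and untreated. Untreated refers to the cells: the Cre of the tumor mice is inducible, and its induction is not described here. Age, sex and pooling of animals are not given in the sources used here. No label says that the arrays of a group came from separate animals, so p-values measure the spread between these arrays, which may be technical.

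The vertebrate midbrain and hindbrain meet at the isthmus, where Otx2 on the anterior side and Gbx2 on the posterior side repress each other. The engrailed genes En1 and En2 are expressed across that boundary, downstream of the secreted signals Wnt1 and Fgf8, and are needed for the cerebellum to form and fold. Later the same factors are reused: Otx1 and Otx2 in granule cell precursors, Pax3 in dorsal neural progenitors and neural crest, Lmx1a in roof plate and upper rhombic lip, and the Iroquois genes Irx3 and Irx5, neighbours on 1 chromosome, in regional progenitor domains.

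Values are log2 signals, in which a step of 1 is a 2-fold difference. The median of all probe sets lay between 2.44 and 2.57 on every array, and a gene was tested when at least 3 of the 19 arrays reached it. Of the 10 genes, 8 passed. Gbx2 reached the median on 1 array and Lmx1a on none. Probe sets bind with different strength, so levels are compared between groups and not between genes. The array titles hold an unlabelled number that is the same for all NEP and GNP arrays, and a different one for all NSC and tumor arrays. It is taken here as a run, although no label says so. The poly-A spike controls averaged 8.69 ± 0.261 in the first run and 6.50 ± 0.272 in the second (SD, n = 8 and n = 11). Comparisons within a run are NEP with GNP and NEP tumor with GNP tumor; in all others run and group cannot be told apart. Of the genes behind the labels, Nes averaged 5.87 in NEPs and 3.49 in GNPs, Atoh1 3.95 in NEPs and 8.85 in GNPs, and Prom1, which encodes CD133, 8.61 in NEPs, 7.24 in GNPs and 8.08 in NSCs. Prom1 was thus not highest in the CD133+ group. Atoh1 was also high in NSCs, at 8.93 ± 0.0121, the level seen in GNPs. Within NEPs Atoh1 was uneven, from 2.38 to 5.67 on single arrays. In NEP and GNP tumors Atoh1 averaged 10.5 and 9.43, and Nes averaged 6.21 and 5.27. Ptch1 was present in both tumors, at 11.5 and 11.2; where its probe set lies relative to the deleted part is not known here, so it does not check the genotype.

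The promoters of Uncx and Otx2 are shown because these genes had the widest spread among NEP arrays and varied together on those arrays. Uncx encodes a paired-type homeobox factor of developing neurons and somites. Promoter windows of 300 bases, 250 before and 50 after a transcription start, came from RefSeq on GRCm38.p6, and 6 of the 10 genes had one. The windows shown are chr5:139543648-139543947 on the plus strand for Uncx and chr14:48667595-48667894 on the minus strand for the most upstream of 4 Otx2 starts. Capitals mark TAATTA, the core bound by many homeodomain factors, searched on both strands.
Uncx: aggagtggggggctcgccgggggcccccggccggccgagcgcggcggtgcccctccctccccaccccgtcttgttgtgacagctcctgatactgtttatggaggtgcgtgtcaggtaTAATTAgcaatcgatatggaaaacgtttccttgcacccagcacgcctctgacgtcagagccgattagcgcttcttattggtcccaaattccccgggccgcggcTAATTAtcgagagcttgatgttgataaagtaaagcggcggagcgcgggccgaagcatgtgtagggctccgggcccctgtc
Otx2: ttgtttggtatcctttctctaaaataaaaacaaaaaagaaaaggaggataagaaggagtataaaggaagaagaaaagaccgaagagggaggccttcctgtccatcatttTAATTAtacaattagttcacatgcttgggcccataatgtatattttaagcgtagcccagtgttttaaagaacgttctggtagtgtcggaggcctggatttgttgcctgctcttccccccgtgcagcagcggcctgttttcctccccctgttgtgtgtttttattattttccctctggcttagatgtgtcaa
Uncx held 2 copies, at -133 and -30 from the start, and this Otx2 window held 1, at -141. The core occurred in 5.29% of 32851 mouse promoter windows. The Otx-type site TAATCC, found in 7.06% of windows, and the E-box CAGCTG, found in 16.3%, were absent from both windows shown. Of the other Otx2 windows, 1 held 3 copies of TAATTA and 1 of TAATCC. The window of Irx3 held none of the 3 motifs.

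**Figure D1:**
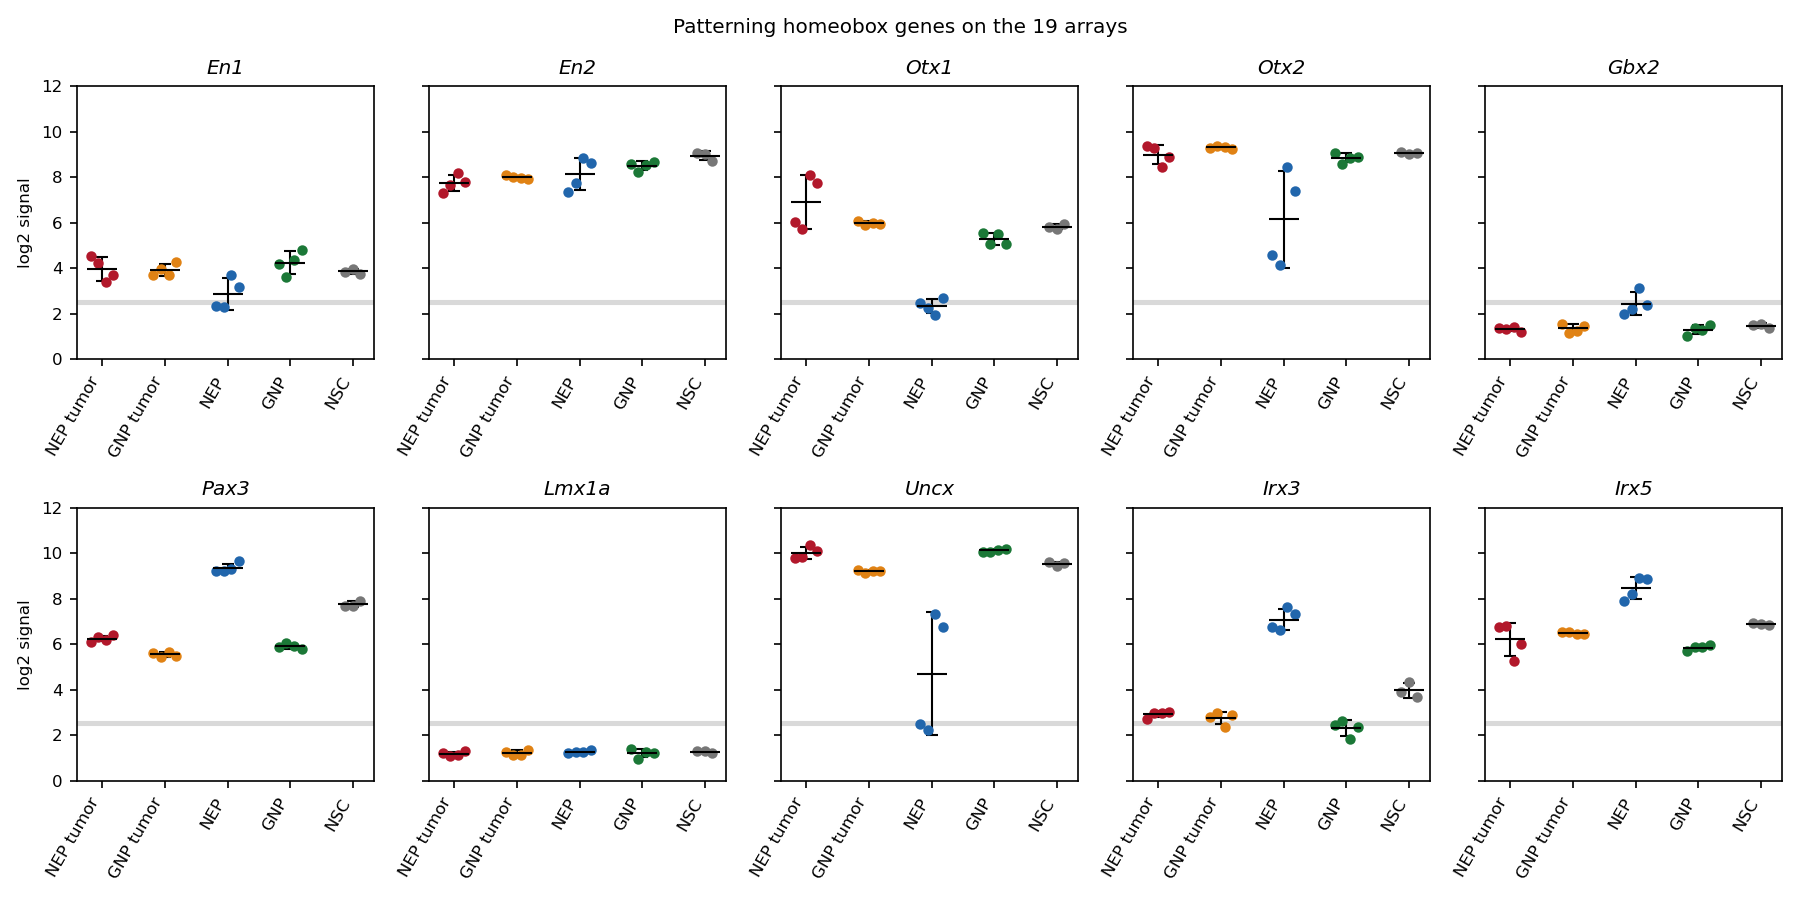
Log2 signal of each of the 10 genes (vertical axis) on the arrays of the 5 groups (horizontal axis); points are arrays, bars are mean and SD, and the gray band is the range of the array medians. Uncx and Otx2 split the NEP arrays into a low and a high pair, while Pax3, Irx3 and Irx5 are higher in NEPs than in every other group.

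In Nestin+ progenitors the patterning genes divided into 2 sets relative to Math1+ progenitors. Pax3, Irx3 and Irx5 were higher in NEPs, by 3.42, 4.75 and 2.61 on the log2 scale. Otx1, Otx2, Uncx and En1 were lower, at -2.95, -2.70, -5.41 and -1.36 on the same scale. En2 did not pass. These 7 calls among the 8 genes tested stand beside a background of 69.5% of 12148 tested genes called in this comparison (29.6% higher and 39.9% lower), so the share of calls is near the background. Groups did not overlap for 6 of the 8, and for 57.1% of all tested genes. Calls are from limma at an adjusted p below 0.05. In bulk samples fewer cells of a type and less RNA per cell cannot be told apart.

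Pax3, a paired-box factor of dorsal neural progenitors, read 9.22, 9.19, 9.31 and 9.63 on the NEP arrays, against 5.86, 6.05, 5.94 and 5.81 on the GNP arrays. The groups lay far apart and the NEP arrays were close together. The difference was 3.42 ± 0.102 (SE; limma adjusted p = 1.45e-14), a 10.7-fold higher signal in NEPs. The other Pax3 probe sets averaged 7.77 and 8.60 in NEPs, against 4.03 and 5.84 in GNPs, and so ran the same way.

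Irx3 stood at 6.75, 6.63, 7.62 and 7.32 in NEPs, against 2.47, 2.63, 1.83 and 2.37 in GNPs. Of the GNP arrays, 2 were under the array median, so the difference of 4.75 ± 0.22 (SE; limma adjusted p = 5.33e-12) starts from a level close to background. Irx5, its neighbour in the Iroquois cluster, was well expressed in both groups. It read 7.90, 8.22, 8.90 and 8.84 in NEPs, against 5.71, 5.87, 5.86 and 5.97 in GNPs. Again no NEP array overlapped a GNP array, and the signal was 6.11-fold higher in NEPs (2.61 ± 0.267, SE; limma adjusted p = 2.16e-07). Irx6, the remaining gene of that cluster, reached the median on no array, with group means between 1.45 and 1.65.

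Otx1, the partner of Otx2 in the forebrain and midbrain, was 2.45, 2.26, 1.95 and 2.71 in NEPs, against 5.56, 5.07, 5.48 and 5.06 in GNPs. Only 1 NEP array reached the array median, while all 4 GNP arrays were more than 2 log2 units above it. The difference was -2.95 ± 0.384 (SE; limma adjusted p = 3.74e-06), and no fold is given because the NEP level is near background.

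Otx2 and Uncx were lower in NEPs on every array but by very different amounts. Otx2 read 4.59, 4.13, 8.45 and 7.40 in NEPs, against 9.05, 8.58, 8.83 and 8.90 in GNPs. Uncx read 2.51, 2.25, 7.34 and 6.75 in NEPs, against 10.07, 10.07, 10.15 and 10.19 in GNPs. NEP arrays 1 and 2 were far below arrays 3 and 4 for both genes, and array 3 came within 0.2 log2 units of the lowest GNP array for Otx2 only. The fitted differences were -2.70 ± 0.65 for Otx2 (limma adjusted p = 0.00147) and -5.41 ± 0.817 for Uncx (limma adjusted p = 1.91e-05), with SE in each case. Uncx on NEP arrays 1 and 2 was under the array median, so its difference is a bound.

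The engrailed genes differed from each other. En1 was 2.34, 2.28, 3.72 and 3.16 in NEPs, against 4.18, 3.60, 4.37 and 4.80 in GNPs. On NEP arrays 1 and 2 it was under the array median, so its difference is a bound. NEP array 3 exceeded GNP array 2, so the groups overlapped, and the difference was -1.36 ± 0.313 (SE; limma adjusted p = 0.0010). An exact permutation test, two-sided with 70 arrangements, gave p = 0.0571 for En1. En2 was high in both, at 7.37, 7.75, 8.85 and 8.62 in NEPs, against 8.57, 8.23, 8.53 and 8.66 in GNPs. Its difference of -0.35 ± 0.253 (SE) had a limma adjusted p of 0.225. Without NEP array 3 the En2 difference was -0.59 and passed (limma adjusted p = 0.0333).

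Gbx2, the hindbrain partner of Otx2 at the isthmus, was low everywhere. It read 1.98, 2.23, 3.15 and 2.39 in NEPs, against 1.01, 1.39, 1.30 and 1.49 in GNPs, and stayed under 1.6 on all NSC and tumor arrays. NEP array 3 was the single array above the median, so Gbx2 was left out of the main tests. With no filter its NEP minus GNP difference was 1.14 (limma adjusted p = 4.27e-05), between levels that are near background on both sides. Lmx1a lay between 0.97 and 1.38 on all 19 arrays and gave no readable level in any group.

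**Figure D2:**
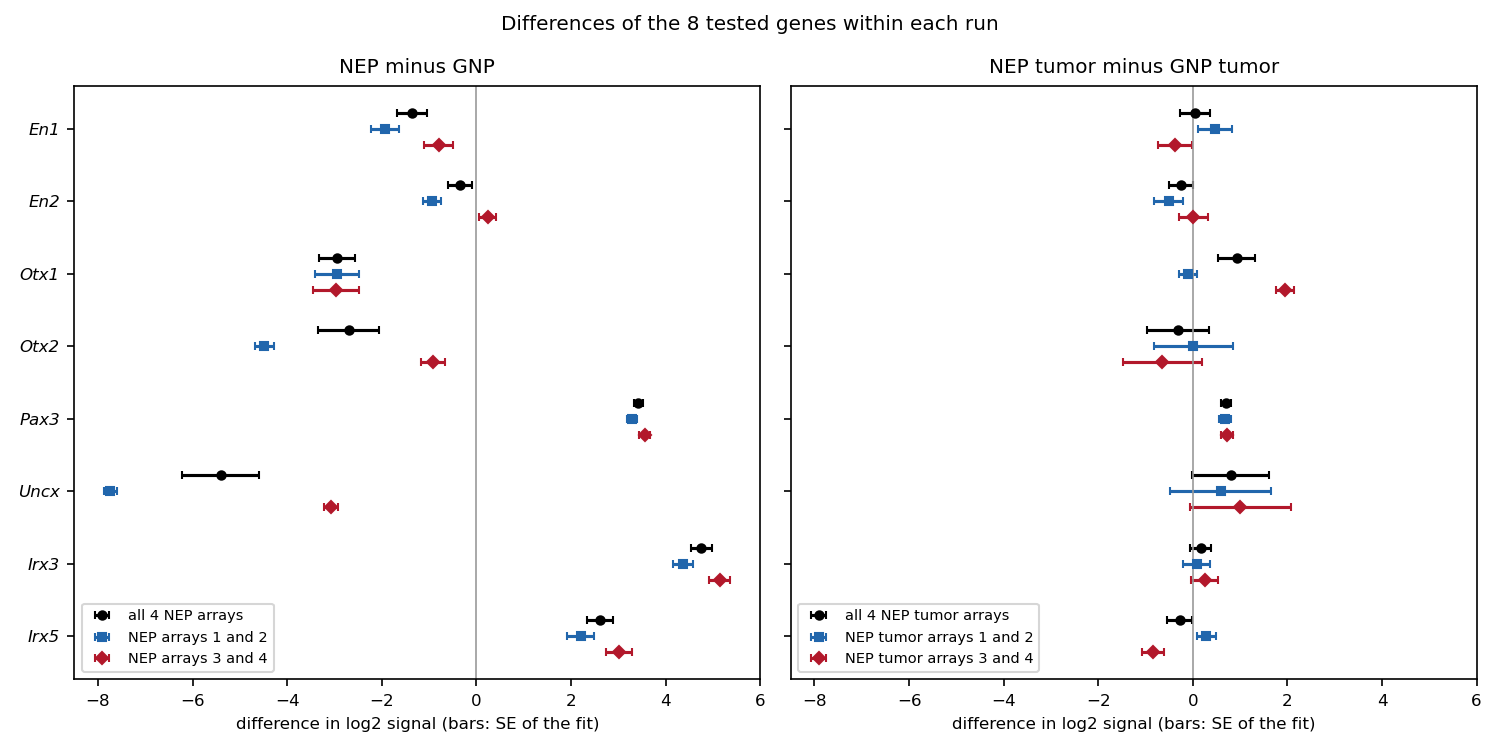
Fitted difference in log2 signal for the 8 tested genes (horizontal axis, bars SE), NEP minus GNP on the left and NEP tumor minus GNP tumor on the right, with all 4 arrays and with each pair of arrays of the first-named group. Uncx runs to -7.74 with NEP arrays 1 and 2, where its signal is under the array median and the value is a bound, and to -3.08 with arrays 3 and 4, while Pax3 hardly moves.

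The spread among NEP arrays differed between the genes. The SD of Uncx over the NEP arrays was 2.70, and 0.535% of tested genes had a larger one. For Otx2 the SD was 2.11, exceeded by 1.09% of genes. Pax3, at 0.20, was close to the middle, with 51.6% of genes above it. Leaving out NEP arrays 1 and 2 gave Uncx -3.08 and Otx2 -0.92 relative to GNPs, and leaving out arrays 3 and 4 gave -7.74 and -4.48, the Uncx value again a bound. Both genes passed in both cases. Otx1 hardly moved, at -2.97 and -2.94, but it was near background on the NEP arrays. A fall of Otx1 on arrays 1 and 2 could therefore not have shown. En2 turned from 0.24, not called, with arrays 3 and 4 to -0.94, called, with arrays 1 and 2.

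Markers of other cells moved with the same split. The median of 12 microglia and macrophage genes was 8.77, 8.88, 3.64 and 2.03 on NEP arrays 1 to 4, and between 1.80 and 2.11 on GNP arrays. All 12 reached the array median on NEP arrays 1 and 2, against 9 on array 3 and 3 on array 4. Medians of the pericyte, fibroblast and meningeal list were 9.23, 9.30, 6.28 and 5.0, and those of the oligodendrocyte list 10.07, 9.83, 7.28 and 6.58. The rhombic lip and granule list ran the other way, at 3.63, 3.52, 7.20 and 6.43, with GNP arrays between 8.58 and 8.89. The differentiating neuron list did so too, at 5.89, 6.39, 8.43 and 8.0. These lists move with Uncx, Otx2 and En1, and their part in those differences was not tested.

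Other lists were level across the NEP arrays, as Pax3 was. The Bergmann glia and astrocyte list, 12 genes, had medians of 10.31 to 10.59 in NEPs, against 3.04 to 4.04 in GNPs. The ventricular zone and GABAergic list had medians of 7.06 to 7.92 in NEPs, against 2.50 to 2.81 in GNPs. Irx3 and Irx5 were somewhat higher on arrays 3 and 4 than on arrays 1 and 2. With arrays 3 and 4 alone, Pax3, Irx3 and Irx5 were higher than in GNPs by 3.56, 5.14 and 3.02. On those arrays the microglia, pericyte and oligodendrocyte medians given above were 3.64 and 2.03, 6.28 and 5.0, and 7.28 and 6.58. The pericyte medians of GNP arrays were between 2.31 and 3.16 and the oligodendrocyte ones between 2.43 and 3.05. The choroid plexus and ependyma list had medians of 4.81, 4.55, 3.77 and 5.76 in NEPs, against 2.34 to 3.07 in GNPs. The part of these lists in the differences of Pax3, Irx3 and Irx5 was not tested.

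**Figure D3:**
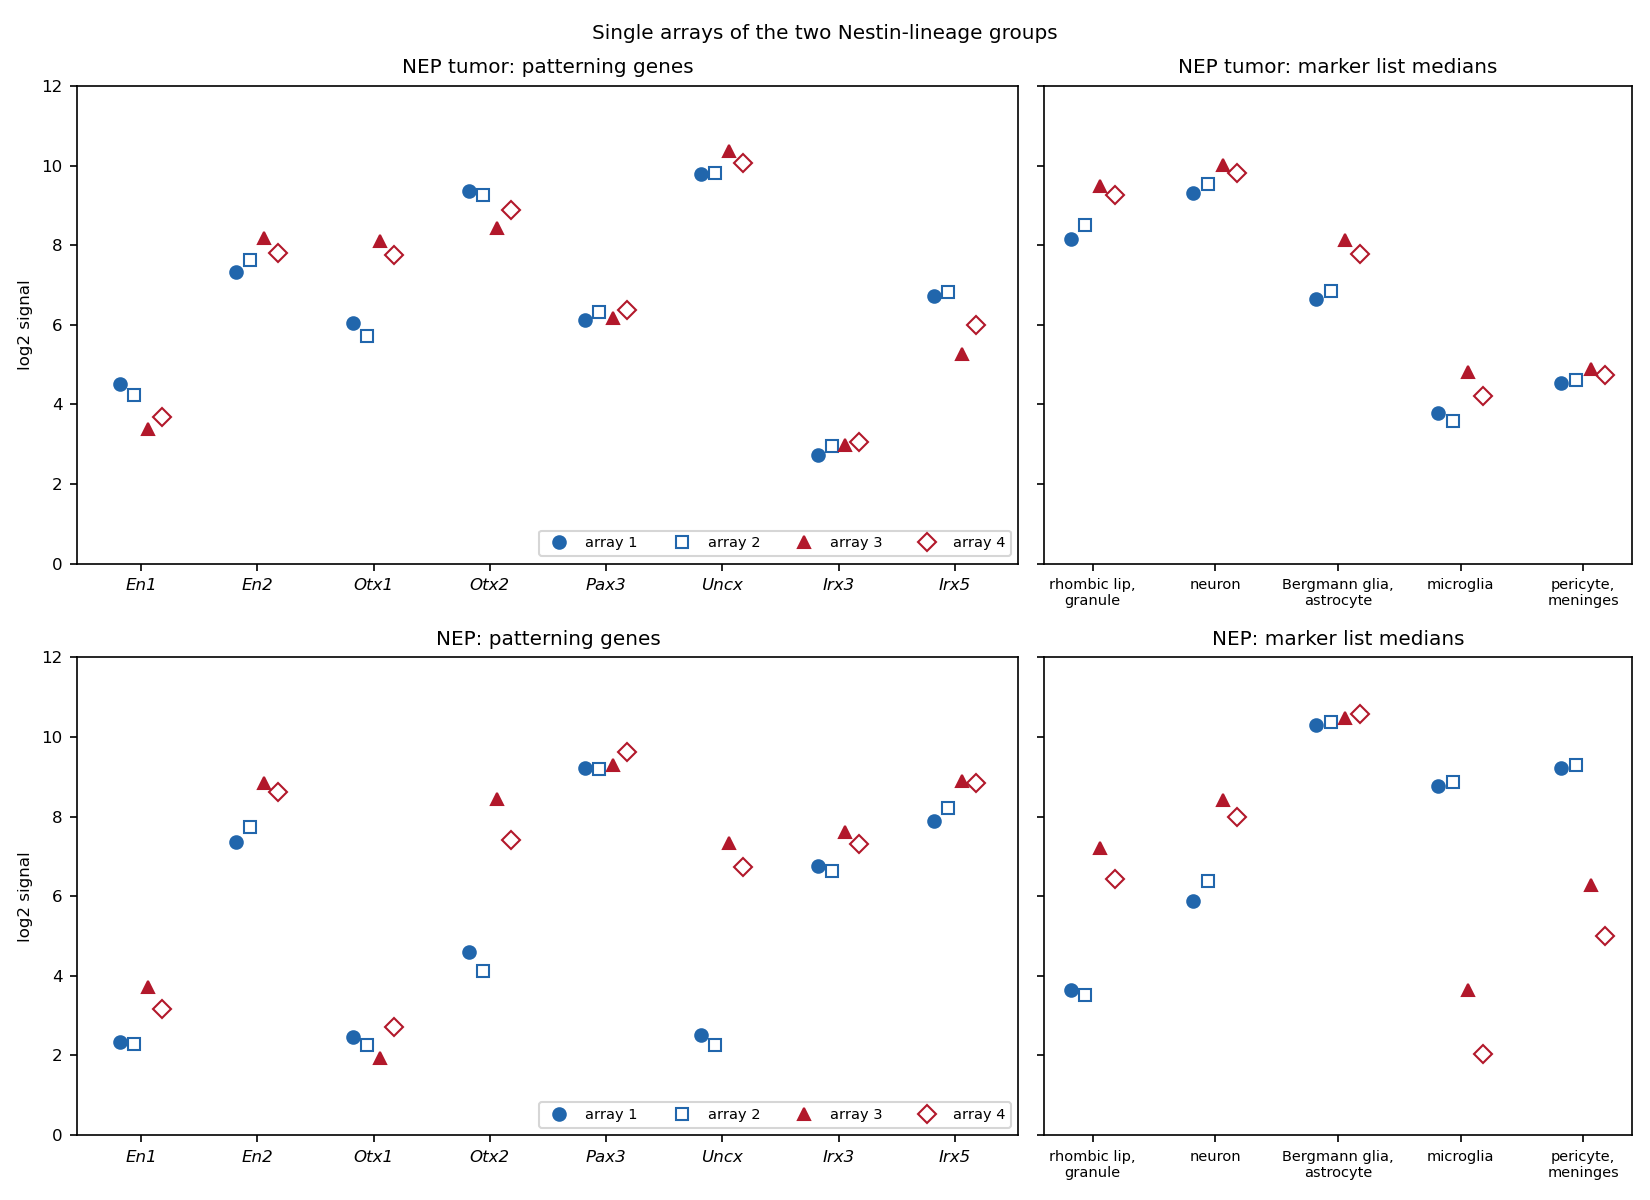
Log2 signal of the 8 tested genes (left panels) and median log2 signal of 5 marker lists (right panels) on the single arrays of the NEP tumor group (top) and the NEP group (bottom). In NEPs, Otx2 and Uncx separate arrays 1 and 2 from arrays 3 and 4 as the microglia, pericyte and granule lists do; in NEP tumors, Otx1 and Irx5 separate the same numbers, which do not pair the samples.

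CD133+, Lin- progenitors took an intermediate place for the genes that were high in NEPs. Pax3 was 9.34 ± 0.203 in NEPs, 5.91 ± 0.105 in GNPs and 7.76 ± 0.133 in NSCs (SD, n = 4, n = 4 and n = 3). Irx3 averaged 7.08 ± 0.470 in NEPs, 2.32 ± 0.346 in GNPs and 3.98 ± 0.332 in NSCs, and Irx5 averaged 8.47 ± 0.487 in NEPs, 5.85 ± 0.109 in GNPs and 6.89 ± 0.048 in NSCs. For all 3 genes no array of one group overlapped another. Several marker lists had the same order, so it is not particular to these genes. List medians averaged 10.4 in NEPs, 7.19 in NSCs and 3.38 in GNPs for Bergmann glia and astrocyte genes. For ventricular zone genes they averaged 7.62, 4.67 and 2.63. Other lists did not have this order, such as the pericyte list at 7.45, 7.62 and 2.57. NSCs are in the other run, and the part of these lists was not tested. Relative to NSCs, NEPs were higher by 1.58 for Pax3, 3.09 for Irx3 and 1.58 for Irx5, with limma adjusted p of 3.26e-09, 1.04e-08 and 0.000184. GNPs were lower than NSCs by -1.85, -1.66 and -1.03, with limma adjusted p of 2.31e-09, 4.71e-05 and 0.00999.

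The Otx genes and Uncx, by contrast, stood in NSCs near the level of GNPs. Otx2 read 9.11, 9.03 and 9.06 in NSCs, Otx1 5.81, 5.74 and 5.95, and Uncx 9.60, 9.44 and 9.58. GNPs differed from NSCs by -0.54 for Otx1, -0.23 for Otx2 and 0.58 for Uncx, none of them called. Otx1, Uncx and En2 nevertheless did not overlap between GNPs and NSCs. The SE of the fit over all groups, 0.882 for Uncx, carries the spread of the NEP arrays. With the NEP arrays left out of the fit, chosen after seeing the data, Uncx (limma adjusted p = 0.000646) and En2, at -0.44 (limma adjusted p = 0.0345), passed. NEPs were lower than NSCs by -3.49 for Otx1, -2.93 for Otx2 and -4.83 for Uncx, with limma adjusted p of 2.1e-06, 0.00189 and 0.000184. En1 and En2 were lower as well, by -0.98 and -0.79 (limma adjusted p = 0.0197 and 0.0200). The Otx1, Uncx and En1 differences are bounds, because those genes were near background on some or all NEP arrays. All 8 genes thus passed between NEPs and NSCs, beside 58.4% of all tested genes (30.9% higher and 27.6% lower). Between GNPs and NSCs 3 passed, all lower, beside 36.3% of all genes (23.2% higher and 13.1% lower). Groups did not overlap for 56% of all genes between NEPs and NSCs and for 50.9% between GNPs and NSCs. The En1 call was lost without NEP array 1 or 2 or NSC array 2, and the En2 call without NEP array 1 or 2 or NSC array 1 or 2, at limma adjusted p of 0.0587 to 0.0683. A fit on the 2 groups alone also lost Otx2 (limma adjusted p = 0.0562).

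Between tumors of the Nestin and of the Math1 lineage, 1 of the 8 tested genes passed. It was Pax3, with 6.11, 6.33, 6.17 and 6.38 in NEP tumors, against 5.63, 5.43, 5.67 and 5.48 in GNP tumors. Every NEP tumor array was above every GNP tumor array, by 0.70 ± 0.102 in the mean (SE; limma adjusted p = 0.000146), which is 1.62-fold. The background was 23.6% of genes called in this comparison, 15.5% higher and 8.1% lower.

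Uncx did not overlap between the tumors either. It was 9.79, 9.83, 10.38 and 10.07 in NEP tumors, against 9.27, 9.14, 9.22 and 9.23 in GNP tumors, a difference of 0.80. In the fit over all 5 groups its SE was 0.817, which carries the spread of the NEP arrays, and it was not called (limma adjusted p = 0.535). With the NEP arrays left out of the fit, an alternative chosen after seeing the data, the same 0.80 passed (limma adjusted p = 5.14e-05). Groups did not overlap for 32.9% of all tested genes.

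Otx1 split the NEP tumors into pairs. It read 6.04, 5.71, 8.09 and 7.75 in NEP tumors, against 6.08, 5.90, 5.99 and 5.94 in GNP tumors. NEP tumor arrays 1 and 2 lay with the GNP tumors and arrays 3 and 4 about 2 log2 units above them. The mean difference of 0.92 ± 0.384 (SE) was not called (limma adjusted p = 0.0938). It passed without NEP tumor array 1, at 1.21 (limma adjusted p = 0.0380), and without array 2, at 1.32 (limma adjusted p = 0.0125). The SD of Otx1 over the NEP tumors, 1.20, was exceeded by 0.189% of tested genes.

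Irx5 split the same arrays the other way. It was 6.73, 6.81, 5.27 and 6.00 in NEP tumors, against 6.51, 6.54, 6.44 and 6.46 in GNP tumors. Arrays 3 and 4 were below all GNP tumors and arrays 1 and 2 above them, so the mean difference of -0.28 was small (limma adjusted p = 0.498). Arrays 3 and 4 also had the higher Bergmann glia and astrocyte medians, at 8.13 and 7.78, against 6.64 and 6.85 on arrays 1 and 2. Their rhombic lip and granule medians were 9.49 and 9.27, against 8.15 and 8.50. Endothelial, microglia, neuron and choroid plexus medians were also higher on arrays 3 and 4. Endothelial medians were 3.72 and 3.39 there, against 2.77 and 2.64 on arrays 1 and 2. Oligodendrocyte medians did not split in this way, at 3.39, 3.76, 3.58 and 3.56 on arrays 1 to 4. The part of these lists in the Otx1 and Irx5 values was not tested.

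Relative to the progenitor of the same lineage, NEP tumors differed in 7 of the 8 tested genes, with 68.9% of all genes called in that comparison (36.2% higher and 32.6% lower). Otx1, Otx2, Uncx and En1 were higher in NEP tumors than in NEPs, by 4.56, 2.84, 5.30 and 1.08. In NEPs Otx1 reached the array median on 1 array, and Uncx and En1 on 2 each. The differences of these 3 genes are therefore bounds. Pax3, Irx3 and Irx5 were lower, at -3.09, -4.15 and -2.26. Irx3 read 2.72, 2.96, 2.97 and 3.04 in NEP tumors, against 6.63 to 7.62 in NEPs. Groups did not overlap for 55.1% of all genes. En1 and Otx2 overlapped between the groups, and the exact permutation test gave p = 0.0857 for En1 and p = 0.0571 for Otx2, so neither passes by that test. With NEP arrays 3 and 4 alone, En1 was higher by 0.52 and not called (limma adjusted p = 0.155). En2 was not called, at -0.41 (limma adjusted p = 0.156), and passed without NEP array 1, at -0.67 (limma adjusted p = 0.0142). Marker lists differed in the same comparison. Of the tested genes of each list, those lower in NEP tumors were 10 of 12 Bergmann glia and astrocyte, 10 of 12 pericyte, fibroblast and meningeal, 9 of 10 endothelial and 7 of 10 ventricular zone genes. Those higher in NEP tumors were 9 of 11 differentiating neuron genes. Their part in the differences of the patterning genes was not tested.

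GNP tumors differed from GNPs in 1 of the 8 tested genes. It was Pax3, lower in GNP tumors at -0.36 ± 0.102 (SE; limma adjusted p = 0.00735), beside 49.8% of all genes (18.5% higher and 31.4% lower). Otx1, Otx2 and Irx5 stood higher and Uncx and En2 lower in GNP tumors without overlap, by 0.68, 0.46, 0.63, -0.90 and -0.51, as did 54.9% of all genes. With the NEP arrays left out of the fit, Uncx, En2, Otx2, Irx3 and Irx5 passed too, with limma adjusted p from 2.79e-06 for Uncx to 0.0487 for Irx3. After a second quantile normalization Pax3 fell by 0.25 and was no longer called (limma adjusted p = 0.0508), while Irx5 was called at 0.71 (limma adjusted p = 0.0300). The other Pax3 probe sets averaged 3.08 and 5.40 in GNP tumors, against 4.03 and 5.84 in GNPs. Arrays of the 2 groups overlapped for the latter probe set and not for the former.

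The tumor minus progenitor difference was unlike in the 2 lineages for 7 of the 8 tested genes. The interaction term of the fit tested this directly: it is the NEP tumor minus NEP difference less the GNP tumor minus GNP difference. It was positive for Uncx (6.21), Otx1 (3.88), Otx2 (2.38) and En1 (1.40), and negative for Irx3 (-4.59), Irx5 (-2.89) and Pax3 (-2.73). The Uncx, Otx1 and En1 terms are bounds, because those genes were near background on some or all NEP arrays. Limma adjusted p ran from 7.93e-11 for Pax3 to 0.0331 for Otx2, and 61.9% of all genes passed this test (36.7% with a positive and 25.2% with a negative term). The term for En2 was 0.10 (limma adjusted p = 0.818). Each run holds progenitors or tumors of both lineages, so a shift of a gene between runs that is equal in both lineages cancels in this term. With NEP arrays 3 and 4 alone the Uncx term was 3.88 and passed, while Otx2, at 0.60, and En1, at 0.84, did not (limma adjusted p = 0.120 and 0.0823). Otx2 also missed the threshold without GNP array 1, NEP array 1, NEP array 2, GNP tumor array 4, NEP tumor array 1 or NEP tumor array 2, at limma adjusted p of 0.0501 to 0.0739.

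NEP tumors were also set against GNPs, across runs, and 4 of the 8 tested genes passed. Uncx differed by -0.10 ± 0.817 and Otx2 by 0.14 ± 0.65 (SE), and neither was called. Otx1 was higher in NEP tumors by 1.61 (limma adjusted p = 0.00247), Irx3 by 0.60 (limma adjusted p = 0.0328) and Pax3 by 0.34 (limma adjusted p = 0.0124). Irx3 is near the array median on both sides, with means of 2.92 in NEP tumors and 2.32 in GNPs. En2 was lower, at -0.76 (limma adjusted p = 0.0199). The 4 calls stand beside 47.4% of all genes (20.6% higher and 26.8% lower), and groups did not overlap for 45.5%. The Irx3 call was lost without GNP array 3 or 4 or NEP tumor array 2, 3 or 4 (limma adjusted p of 0.0520 to 0.123), and the En2 call without NEP tumor array 1 (0.0707). Irx5 passed without NEP tumor array 3, at 0.66 (0.0186). The 2 other Pax3 probe sets gave 0.28 and 0.41 and did not pass (limma adjusted p = 0.0893 and 0.0645).

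Most tested receptors and targets of the isthmic signal FGF were higher in NEPs than in GNPs. Of 17 listed isthmic and FGF genes, 16 were on the array and 12 were tested; 10 were higher in NEPs and 1 was lower, beside 29.6% and 39.9% of all tested genes. Their median difference was 2.96, against -0.11 over all tested genes. Il17rd, a feedback inhibitor of FGF signalling, was 7.98 ± 0.356 in NEPs and 2.98 ± 0.140 in GNPs (SD, n = 4 each). The receptor Fgfr2 was 7.63 ± 0.242 in NEPs and 3.02 ± 0.194 in GNPs, and the feedback inhibitor Spry1 7.57 ± 0.443 in NEPs and 3.32 ± 0.133 in GNPs. Fgf8 was the gene that was lower, by -1.09, from means of 1.53 in NEPs and 2.62 in GNPs that are close to or below the array median. Fgf8 passed the filter only through GNP and NSC arrays. Spry4, among the 10 higher genes, reached the array median on 3 NEP arrays and on no other array. Spry4 was thus tested only through the group where it is high, and its call is no support for the count. Wnt1, Fgf17 and Fgf18 reached the median on no array.

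Between the tumors 3 of the 12 FGF genes passed, all higher in NEP tumors, beside 23.6% of all tested genes, so the share is near the background. The ETS factor Etv5, a target of FGF signalling, was higher by 1.63 ± 0.192 (SE; limma adjusted p = 2.22e-05), with means of 8.33 in NEP tumors and 6.71 in GNP tumors. The receptor Fgfr1 was higher by 0.76 (limma adjusted p = 0.00357), and Fgf8 by 0.42 between levels near background. Relative to NEPs, 9 of the 12 were lower in NEP tumors and Fgf8 was higher, beside 32.6% and 36.2% of all genes. Among the 12, Spry4 was tested only through its NEP arrays, and Fgf8 only through GNP and NSC arrays. Il17rd, at -5.18, was the farthest down, with 2.80 in NEP tumors. Dusp6, a phosphatase that inactivates ERK, was not called there, at 8.93 in NEP tumors and 9.18 in NEPs. In GNP tumors 7 of the 12 were higher than in GNPs and Fgf8 was lower, led by Dusp6 at 2.23 and Spry1 at 1.70, beside 18.5% of all genes higher and 31.4% lower. In that comparison 11 of 12 tested Bergmann glia and astrocyte genes, 8 of 12 pericyte, fibroblast and meningeal genes and 7 of 11 microglia genes were higher too. The part of these lists in the FGF differences was not tested.

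**Figure D4:**
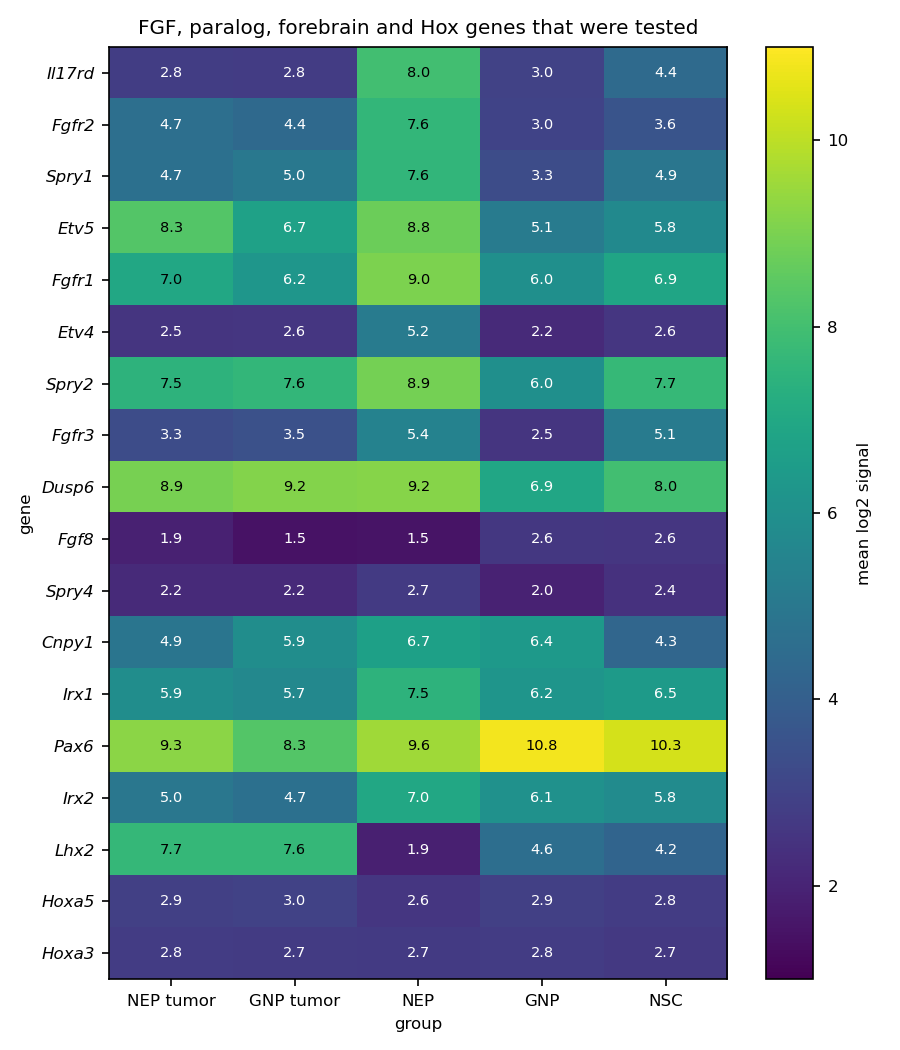
Mean log2 signal (colour and printed value) of the tested FGF, paralog, forebrain and Hox genes in the 5 groups, tumors at left. Il17rd stands at 8.0 in NEPs and at 2.8 in both tumors, while Lhx2 stands at 1.9 in NEPs and near 7.7 in both tumors.

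Few paralogs of the patterning genes were expressed. Of 12 listed, 11 were on the array and 3 were tested. Irx1 and Irx2, which lie together in the second Iroquois cluster, were higher in NEPs than in GNPs by 1.27 and 0.94, as their relatives Irx3 and Irx5 were. They were also lower in NEP tumors than in NEPs, at -1.56 and -2.03. Pax6, a factor of granule cell precursors, was lower in NEPs than in GNPs (-1.24) and higher in NEP tumors than in GNP tumors (0.92; limma adjusted p = 0.000501). Pax5, Pax7, Pax8 and Lmx1b reached the array median on no array.

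Of 11 tested PBX, MEIS, PKNOX and TLE cofactor genes, 4 were higher and 3 lower in NEPs than in GNPs, with a median difference of -0.08. These 7 calls stand beside 69.5% of all tested genes and are near that share. Pknox2, a TALE cofactor of homeodomain proteins, was higher by 2.10, and its paralog Pknox1 was lower, at -1.01. The corepressor Tle4, which engrailed proteins can recruit, was higher by 0.96. Pbx4 was the one cofactor called between the tumors, at 0.37 (limma adjusted p = 0.0498). Its means, 2.73 in NEP tumors and 2.35 in GNP tumors, are near the array median.

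Genes that mark regions in front of and behind the cerebellum were mostly below the array median. Of 15 Hox genes 2 were tested, and Hoxa5 differed between NEPs and GNPs by -0.30 near the array median. Of 13 forebrain genes 1 was tested. This was Lhx2, a LIM homeobox factor of forebrain and eye, with means of 7.65 in NEP tumors, 7.65 in GNP tumors, 1.90 in NEPs, 4.62 in GNPs and 4.24 in NSCs. It was higher in NEP tumors than in NEPs by 5.75, a bound because no NEP array reached the array median, and higher in GNP tumors than in GNPs by 3.02, both across runs.

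Across the 19 arrays the genes fell along the same lines. Otx2 and Uncx had a Pearson r of 0.945, Pax3 and Irx3 one of 0.948, and Irx3 and Irx5 one of 0.927. For pairs of members, r without the NEP arrays was not computed. Outside NEPs, Otx2 and Uncx did not run together in every group. Otx2 averaged 9.30 in GNP tumors and 8.84 in GNPs, while Uncx averaged 9.22 in GNP tumors and 10.12 in GNPs. Otx1 and Irx5 ran opposite, at -0.852. The arrays share groups and runs, so these values describe the 5 groups more than single arrays. Among all tested genes, the one most like Uncx was Stmn2, a neuronal tubulin-binding protein, at 0.995, and it kept 0.853 over the 15 arrays without NEPs. The closest to Otx2 was Soga3, at 0.965, and that fell to 0.169 without NEPs. Irx3 was closest to Cdc42ep1 (0.990, and 0.907 without NEPs), Pax3 to Clec3b (0.987 and 0.960) and En2 to Zic2, a zinc finger factor of the cerebellum (0.891 and 0.917). Otx1 was closest to Utp4 (0.966), Irx5 to Prag1 (0.966) and En1 to Plk4 (0.932).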

How the data were processed

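The submitters' processing notes name RMA and Affymetrix Expression Console as the tools behind the deposited log2 signals; versions are not given in the sources used here. Total RNA was isolated by Trizol, amplified (Ambion WT Expression Kit) and biotin-labelled, per the labels' protocols. The log2 scale was read from the values (0.29 to 13.4). Depth does not apply; the number of arrays limits precision. Of 45101 probe sets, 64 are controls, 34945 have 1 symbol, 932 several and 9160 none; none with several was used. A gene was read from its probe set with the highest mean. Genes at or above the array median on at least 3 of 19 arrays were tested (12148) with limma 3.58.1 in R 4.3.3, in 1 fit of 5 groups with Benjamini-Hochberg adjustment at 0.05; the script was tested on simulated data. The 8 comparisons comprise 7 pairs of groups and the interaction. Replicate numbers are shared between groups, but same-numbered arrays did not deviate together (correlations of -0.158 to 0.0709), so they were not treated as pairs. The exact permutation test was two-sided; with 4 against 4 arrays its smallest p is 0.0286, and with 4 against 3 it is 0.0571. The members, gene lists and alternatives were chosen with earlier results of these data known. Besides the 10 members, named genes are the 3 most alike by Pearson r, of which the closest is mostly given, and listed pathway genes.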

Additional observations from a re-analysis of the deposited data

Results flagged for a closer look

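For 7 of the 8 tested genes the tumor minus progenitor difference in the Nestin lineage was unlike that in the Math1 lineage by the interaction term of the limma fit. The term was 6.21 for Uncx (adjusted p = 0.000223), 3.88 for Otx1 (1.36e-05), 2.38 for Otx2 (0.0331) and 1.40 for En1 (0.0116). It was -4.59 for Irx3 (1.95e-09), -2.89 for Irx5 (6.3e-06) and -2.73 for Pax3 (7.93e-11). The Uncx, Otx1 and En1 terms are bounds, because of NEP values near background. Of all tested genes, 61.9% passed the same test. A screen of 40 groups of 4 arrays for a single array far from the others found 0, where chance gives about 1 in 20. The screen cannot flag a split into a low and a high pair, as Uncx showed in NEPs and Otx1 in NEP tumors. Gbx2 and Lmx1a, which are near background, were among the groups screened.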

How the results depend on the processing

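Called genes among the 8 tested numbered 7 for NEP against GNP, 8 for NEP against NSC, 3 for GNP against NSC, 1 for NEP tumor against GNP tumor, 7 for NEP tumor against NEP, 1 for GNP tumor against GNP, 4 for NEP tumor against GNP and 7 for the interaction. Leaving out 1 array at a time gave 7 to 8, 6 to 8, 3 to 3, 1 to 2, 7 to 8, 1 to 1, 3 to 4 and 6 to 7 in the same order. Array weights gave 4 for NEP tumor against GNP tumor and 6 for GNP tumor against GNP. Those weights called 5653 genes between the tumors, against 2861 without, and 7041 between GNPs and NSCs, against 4409 without. A fit on only the groups compared gave 5 for NEP against NSC, 6 for GNP against NSC, 2 between the tumors and 6 for GNP tumor against GNP; leaving the NEP arrays out, chosen after seeing the data, gave 5, 2 and 6 for the last 3. The exact permutation test gave 2 between the tumors and 6 for GNP tumor against GNP. NEP tumor arrays 3 and 4 alone gave 3 between the tumors and 2 against GNP. The replicate block gave 7 for NEP against GNP, 1 between the tumors and 7 for the interaction and changed no call. Beyond the array-weight totals above, the calls over all genes under these settings are not printed here. A changed count of members is therefore not read as a result about the members.

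Signs turned only where the gene was not called with all arrays. The En2 interaction was -0.020 after quantile normalization, between -0.16 and 0.34 with 1 array left out, -0.49 with NEP arrays 3 and 4 and -0.16 with NEP tumor arrays 1 and 2. En2 was 0.24 for NEP against GNP with NEP arrays 3 and 4, and for NEP tumor against NEP 0.042 with array weights and 0.18 with NEP arrays 1 and 2. En1 between the tumors was -0.12 with array weights and between -0.15 and 0.23 with 1 array left out, and Irx5 was between -0.48 and 0.029. With NEP tumor arrays 3 and 4, values between the tumors were -0.38 for En1 and 0.0086 for En2, and against GNP -0.21 for Irx5, -0.19 for Otx2 and 0.11 for Uncx. With arrays 1 and 2 they were 0.29 for Irx5, -0.10 for Otx1 and 0.010 for Otx2 between the tumors, and 0.14 for En1 against GNP. Quantile normalization moved the median of all genes by at most 0.055. The cause of these changes was not tested. A signal near the array median limits Otx1 in NEPs, Uncx and En1 on NEP arrays 1 and 2, Irx3 in GNPs and both tumor groups, and Gbx2 and Lmx1a throughout.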

Other observations

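Genes of midbrain dopamine neurons, a cell type specified under Otx2 and Lmx1a, were read beside the patterning genes. Of 8 listed, 4 were tested, and relative to NEPs 3 were higher and 1 was lower in NEP tumors. In that comparison 36.2% of all tested genes were higher and 32.6% lower. Slc6a3, Pitx3, Foxa1 and Slc18a2 reached the array median on no array. Foxa2, a forkhead factor of the floor plate, averaged 4.87 ± 0.719 in NEP tumors, 5.18 ± 0.478 in GNP tumors, 1.91 ± 0.115 in NEPs, 1.95 ± 0.132 in GNPs and 1.96 ± 0.0861 in NSCs (SD). Th, which encodes tyrosine hydroxylase, averaged 4.22 and 4.23 in the NEP and GNP tumors, and between 1.68 and 1.84 in the progenitors. Neither gene reached the array median on any progenitor array, so both passed the filter through the tumors and their differences are bounds, for Th 2.38 between NEP tumors and NEPs and 2.43 between GNP tumors and GNPs, both across runs. Ddc, which encodes the next enzyme of dopamine synthesis, averaged 2.13 in NEP tumors and 4.23 in NEPs and was the gene that was lower. Nr4a2, a nuclear receptor of dopamine neurons, averaged 8.01 in NEP tumors, 8.29 in GNP tumors, 4.90 in NEPs, 6.84 in GNPs and 7.11 in NSCs. Lmx1a gave no readable level in any of these groups.

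Neural crest and Schwann cell genes were read because Pax3 also marks neural crest. Of 10 listed, 8 were on the array and 3 were tested. Foxd3, Erbb3, Pmel, Dct and Tyr reached the array median on no array. Sox10, shared by crest and oligodendrocyte lineages, was higher in NEPs than in GNPs by 4.01, while Ngfr was lower, at -3.40. Mitf, with means of 4.67 in NEPs and 4.52 in GNPs, was not called. In that comparison 29.6% of all tested genes were higher and 39.9% lower. Ngfr was higher in NEP tumors than in GNP tumors by 1.19 (limma adjusted p = 0.00138), with means of 7.35 in NEP tumors and 6.16 in GNP tumors. Between the tumors 15.5% of all tested genes were higher and 8.1% lower.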
